A study of Mus musculus with 12 samples.

Results

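The 9 genes described here are Atf4, Ddit3, Trib3, Chac1, Asns, Psat1, Phgdh, Shmt2 and Mthfd2, which belong to the ATF4 stress response and to the serine and one-carbon pathway. They were taken by symbol from the array's annotation, each by the probe with the highest mean over all arrays, and are 9 of 19505 named genes. The set was chosen with earlier results of these data known, so its counts beside the shares of all probes are a description. Expression was measured in whole colon tissue of healthy male mice, 12 to 16 weeks old, on Affymetrix arrays. The genotypes were DKO, which lacks both IL4i1 and LAO1, LAO1 KO, IL4i1 KO and wt, with 3 arrays each and 12 in all. Il4i1 and Lao1 encode secreted oxidases that break down L-amino acids. The study asked what losing both does to amino acid use and inflammation in the gut. Strain, the way each allele was made and whether an array holds 1 mouse are not given in the sources used here, although 4 mice were chosen per genotype. Every p-value is therefore set against differences among arrays, and part of those may be technical.

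When cells run short of amino acids or fold proteins badly, kinases phosphorylate the initiation factor eIF2alpha. General translation then slows, while the mRNA of the transcription factor ATF4 is translated more, so ATF4 protein is set to a large extent at translation rather than by its mRNA level. ATF4 switches on genes of amino acid uptake and synthesis by binding C/EBP-ATF response elements. Its targets include the serine synthesis enzymes and the mitochondrial folate enzymes, which pass carbon from serine into purines, thymidylate and methyl groups. Dividing epithelium and activated immune cells, both present in the colon, use this route heavily.

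The ATF4 binding core TGATGNAA was searched on both strands of RefSeq promoter windows (GRCm38.p6, 250 bases before to 50 after each transcription start). It occurred in 3 of the 9 genes, against 4.51% of 27025 genes and 3.97% of 32851 windows. The related core TGACGNAA, which shares no occurrence with it, was found in 1 of the 9, against 1.83% of genes. The matching stretches are shown because these elements are the textbook contact point between ATF4 and its targets, with the match in capitals, written 5′ to 3′ on the strand of the gene. The Asns match lies 23 to 16 bases before the start (chr6:7693214-7693243, minus strand). The Chac1 windows lie on chr2:119350992-119351010 and chr2:119351038-119351067 (plus strand), the second holding the core on the opposite strand. The Trib3 match, also on the opposite strand, lies 15 to 22 bases after the start (chr2:152344028-152344057, minus strand).
Asns: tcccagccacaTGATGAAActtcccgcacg
Chac1, TGACGNAA: TGACGCAAtctgactcgcc
Chac1, TGATGNAA: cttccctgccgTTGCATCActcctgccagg
Trib3: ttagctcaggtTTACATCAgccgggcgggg

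Asns and Mthfd2 were the 2 genes past the test described below, so the 250 bases before their starts are given whole (Asns chr6:7693210-7693459 and Mthfd2 chr6:83317605-83317854, both minus strand). Capitals mark TGATGNAA, which these letters of Mthfd2 do not hold.
Asns upstream: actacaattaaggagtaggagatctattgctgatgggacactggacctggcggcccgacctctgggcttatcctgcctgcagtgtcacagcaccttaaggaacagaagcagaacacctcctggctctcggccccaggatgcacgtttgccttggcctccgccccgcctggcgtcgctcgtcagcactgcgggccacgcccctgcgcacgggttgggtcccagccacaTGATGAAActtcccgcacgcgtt
Mthfd2 upstream: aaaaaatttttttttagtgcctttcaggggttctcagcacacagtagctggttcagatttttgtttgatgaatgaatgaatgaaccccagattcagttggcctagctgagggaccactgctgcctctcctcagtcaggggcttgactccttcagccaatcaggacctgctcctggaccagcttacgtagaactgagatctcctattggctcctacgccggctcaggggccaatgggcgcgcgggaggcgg

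The arrays gave log2 values of 1.72 to 19.93 for 22206 probes, with array medians between 5.415 and 5.49. The mean of the 6 colon epithelium markers was 15.2 to 16.1 on all 12 arrays. That of the 9 markers of absorptive colonocytes, the mature surface cells, was 12.8 to 13.2 in DKO and 13.3 to 14.9 on the other 9 arrays, which did not overlap with DKO. No probe was named Il4i1, and the dim Lao1 probe (2.64 to 3.56) checked nothing, so genotypes rest on the labels. DKO replicate 2 stood apart: all 14 measured markers of pancreatic acinar cells, digestive enzymes of the pancreas, were higher than on any other array, with a mean of 15.4 against 4.32 to 4.95. DKO replicate 1 had the highest means of the replication list (9.85, others 7.77 to 8.83) and of the neutrophil markers (5.61, others 3.82 to 4.44). IL4i1 KO replicate 2 had 32.5% of all probes above the highest wt array and 29% below the lowest, against 20.8% to 27.5% for the other knockout arrays. In whole tissue, fewer cells of a type and less RNA per cell cannot be told apart.

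Asns and Mthfd2 rose in DKO relative to IL4i1 KO, by 3.66-fold and 3.36-fold, 2 of the 9 genes where 0.387% of all probes passed as higher. In DKO the metabolic genes and Trib3 and Chac1 were above every wt array on replicates 1 and 2. On replicate 3 Trib3, Asns, Phgdh, Shmt2 and Mthfd2 were at most 0.36 from the wt mean, while Chac1 and Psat1 lay below every wt array. In IL4i1 KO, Asns, Mthfd2, Psat1 and Chac1 lay below every wt array, a difference from wt that did not pass the test. The transcription factors Atf4 and Ddit3 had genotype means of 12.52 to 12.93 and 7.02 to 7.22, with all groups overlapping on the chosen probes. DKO had the highest mean for 8 of the 9 genes and IL4i1 KO the lowest for 7.

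**Figure D1:**
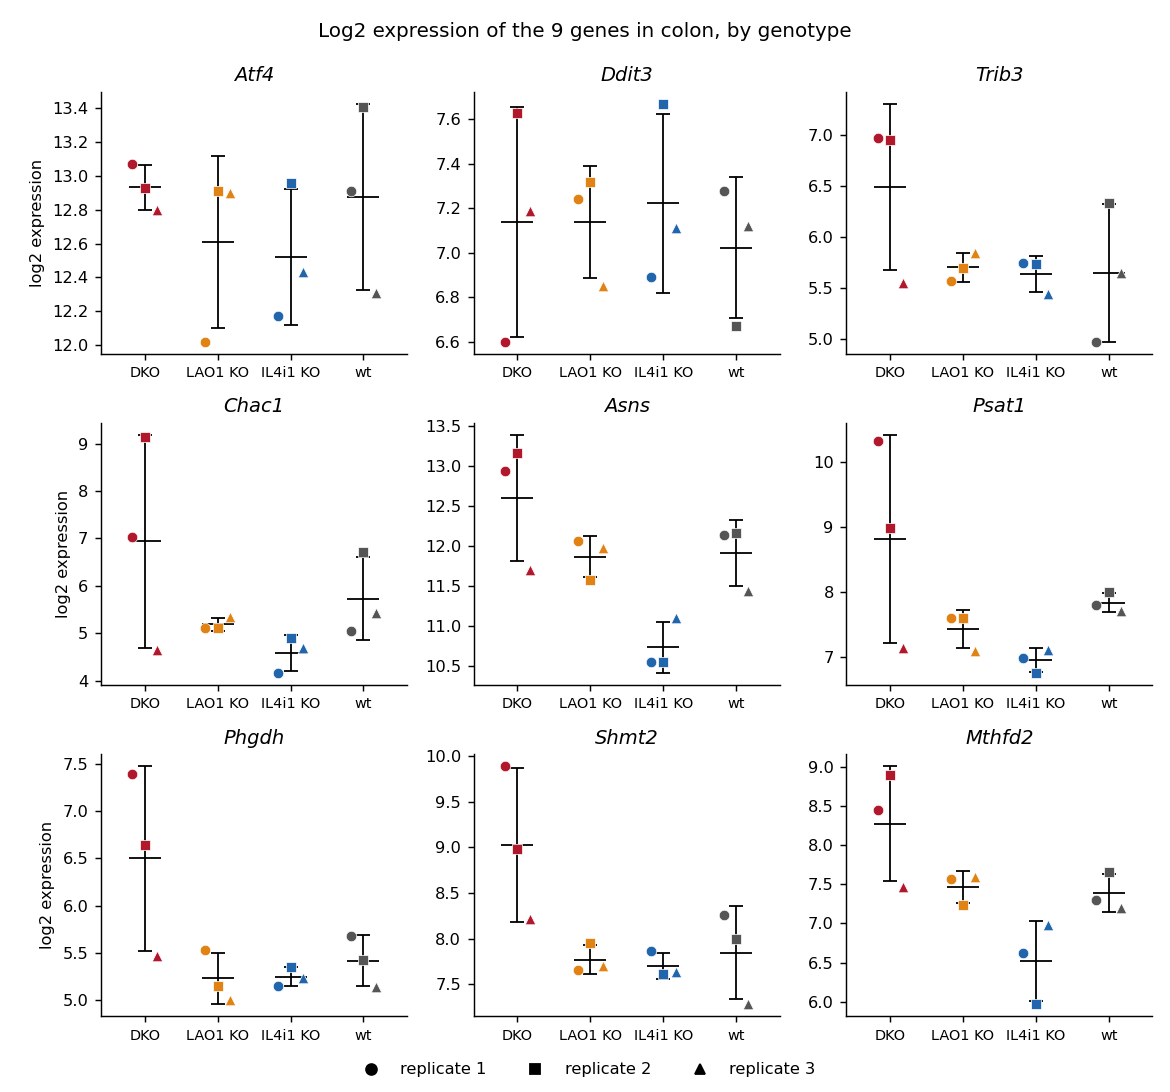
Log2 expression of each of the 9 genes (vertical axes) on every array, with the genotypes DKO, LAO1 KO, IL4i1 KO and wt from left to right. Points are arrays (shape for replicate number), long bars are group means and whiskers 1 SD. For Asns, DKO lies at 11.7 to 13.16 and IL4i1 KO at 10.54 to 11.1, while the DKO points of Psat1 and Chac1 spread widely.

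Atf4, the central transcription factor, was at 13.07, 12.93 and 12.8 in DKO, at 12.02, 12.91 and 12.9 in LAO1 KO, at 12.17, 12.96 and 12.43 in IL4i1 KO, and at 12.91, 13.41 and 12.31 in wt. All groups overlapped, and the DKO arrays lay inside the wt range. Limma gave a difference of 0.06 between DKO and wt (SE 0.32, Benjamini-Hochberg adjusted p = 0.987), with a 95% interval of -0.63 to 0.74.

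Ddit3 encodes CHOP, a C/EBP family factor that ATF4 induces when stress persists. It was at 6.6, 7.63 and 7.19 in DKO, at 7.24, 7.32 and 6.85 in LAO1 KO, at 6.89, 7.67 and 7.11 in IL4i1 KO, and at 7.28, 6.67 and 7.12 in wt. No genotype stood apart on this probe, and the highest of its 12 values was in IL4i1 KO replicate 2. DKO differed from wt by 0.12 (SE 0.29, limma adjusted p = 0.959). A second Ddit3 probe, left out by the rule, had 5.59, 5.84 and 5.57 in DKO and 5.4, 5.35 and 5.43 in LAO1 KO. It had 4.89, 5.37 and 5.41 in IL4i1 KO and 5.48, 5.69 and 5.44 in wt. Both single knockouts lay below every wt array on it, and every DKO array lay above both. On it DKO lay above IL4i1 KO by 0.44 (limma unadjusted p = 0.0397, adjusted p = 0.48). The chosen probe gave -0.08 (adjusted p = 0.963), so the probes disagree in sign and neither passed the adjusted test.

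Trib3 encodes a pseudokinase that ATF4 and CHOP induce and that dampens their activity. It was at 6.97, 6.95 and 5.55 in DKO, at 5.57, 5.7 and 5.85 in LAO1 KO, at 5.75, 5.74 and 5.44 in IL4i1 KO, and at 4.98, 6.33 and 5.65 in wt. DKO replicates 1 and 2 were the highest of all 12 arrays, and DKO replicate 3 lay below wt replicate 3. DKO stood 0.84 above wt (SE 0.38, limma adjusted p = 0.667), with an unadjusted p under 0.05.

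Chac1 encodes an enzyme that breaks down glutathione and is among the most strongly ATF4-induced genes known. It had the widest spread of the 9, at 7.03, 9.13 and 4.65 in DKO, at 5.11, 5.11 and 5.34 in LAO1 KO, at 4.16, 4.9 and 4.69 in IL4i1 KO, and at 5.04, 6.71 and 5.42 in wt. DKO spanned 4.48 log2 units and the other 9 arrays together 2.55, and DKO replicate 3 lay below every wt array. IL4i1 KO lay below every wt array as well, by 1.14 on average (SE 0.79, limma adjusted p = 0.744). DKO stood 1.21 above wt (SE 0.79, limma adjusted p = 0.789). Without DKO replicate 2, the array with the acinar markers, that difference was 0.12, and without DKO replicate 3 it was 2.36.

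Asns encodes asparagine synthetase, which makes asparagine from aspartate and glutamine and carries the promoter match shown above. It was at 12.94, 13.16 and 11.7 in DKO, at 12.06, 11.57 and 11.97 in LAO1 KO, at 10.55, 10.54 and 11.1 in IL4i1 KO, and at 12.14, 12.16 and 11.44 in wt. Every IL4i1 KO array lay below every array of the other 3 genotypes. The mean was 12.6 ± 0.79 in DKO and 10.73 ± 0.32 in IL4i1 KO (SD, n = 3 arrays each), a limma difference of 1.87 (SE 0.35, 95% interval 1.12 to 2.62, adjusted p = 0.0348). IL4i1 KO stood 1.18 below wt, a log2 difference of -1.18 (SE 0.35, 95% interval -1.94 to -0.43, limma adjusted p = 0.52). DKO stood 0.69 above wt (SE 0.35, limma adjusted p = 0.717). In order of means Asns ran from DKO through wt (11.91) and LAO1 KO (11.87) to IL4i1 KO, with wt and LAO1 KO closer than their spread.

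Phgdh catalyses the entry step of serine synthesis from the glycolytic intermediate 3-phosphoglycerate. It was at 7.4, 6.64 and 5.46 in DKO, at 5.53, 5.15 and 5 in LAO1 KO, at 5.15, 5.35 and 5.23 in IL4i1 KO, and at 5.68, 5.42 and 5.14 in wt. DKO replicates 1 and 2 were the only arrays above 5.68, and the other 10 lay within 0.68 of each other. DKO stood 1.09 above wt (SE 0.37, 95% interval 0.29 to 1.89, limma adjusted p = 0.557).

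Psat1 catalyses the next step, a transamination. It was at 10.33, 8.99 and 7.15 in DKO, at 7.61, 7.6 and 7.09 in LAO1 KO, at 6.99, 6.76 and 7.12 in IL4i1 KO, and at 7.81, 8.01 and 7.71 in wt. Both single knockouts lay below every wt array, and so did DKO replicate 3. The log2 differences from wt were 0.98 in DKO (SE 0.54, limma adjusted p = 0.74), -0.41 in LAO1 KO (adjusted p = 1) and -0.89 in IL4i1 KO (adjusted p = 0.713). The difference in DKO was 0.23 without DKO replicate 1 and 1.82 without DKO replicate 3. DKO stood 1.87 above IL4i1 KO (SE 0.54, limma adjusted p = 0.219), as large a difference as that of Asns with a wider spread.

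Shmt2, the mitochondrial enzyme that splits serine into glycine and a one-carbon unit on folate, was at 9.89, 8.98 and 8.21 in DKO. It was at 7.65, 7.95 and 7.7 in LAO1 KO, at 7.86, 7.61 and 7.63 in IL4i1 KO, and at 8.26, 8 and 7.28 in wt. All 3 DKO arrays lay above both single knockouts, and only wt replicate 1 exceeded the lowest of them. Of the 9 it had the smallest p between DKO and wt, with a difference of 1.18 (SE 0.36, 95% interval 0.41 to 1.95, limma adjusted p = 0.485).

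Mthfd2 oxidises that one-carbon unit inside mitochondria and is known for low levels in most resting adult tissues. It was at 8.45, 8.9 and 7.47 in DKO, at 7.57, 7.23 and 7.59 in LAO1 KO, at 6.62, 5.97 and 6.98 in IL4i1 KO, and at 7.3, 7.66 and 7.2 in wt. As with Asns, every IL4i1 KO array lay below every array of the other genotypes. The mean was 8.27 ± 0.73 in DKO and 6.52 ± 0.51 in IL4i1 KO (SD, n = 3 arrays each), a limma difference of 1.75 (SE 0.34, 95% interval 1.02 to 2.48, adjusted p = 0.0425). IL4i1 KO differed from wt by -0.86 (SE 0.34, limma adjusted p = 0.598), and DKO from wt by 0.89 (SE 0.34, adjusted p = 0.587).

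In DKO against IL4i1 KO, 2 of the 9 genes passed limma's adjusted test as higher, against 0.387% of all probes. At an unadjusted p under 0.05, 7 of 9 were higher, against 5.17%, and the arrays of 5 did not overlap, against 6.05%. The median difference of the 9 was 1.33, and that of all probes -0.02. The genes outside the 7 were Atf4 (0.41, limma adjusted p = 0.723) and, by its chosen probe, Ddit3. Markers of other cells differed in the same comparison. Smooth muscle markers were lower in DKO for 8 of 8 (median -0.997) and absorptive colonocyte markers for 8 of 9 (median -1.12), with 5 and 4 of them at an unadjusted p under 0.05, against 9.83% of all probes in either direction. The macrophage and monocyte markers were higher for 7 of 7 (median 1.003), 4 of them at that level. Replication and mitosis genes were higher for 12 of 12 (median 1.08), 9 of them at that level and 6 without DKO replicate 1. With all arrays, none of these markers or replication genes passed limma's adjusted test. Without DKO replicate 2, 5 of the 12 replication genes and 2 of the 8 smooth muscle markers passed, as did 174 of all 22206 probes. The part of these markers and of replication in the differences of the 9 genes was not tested.

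The 2 calls in DKO against IL4i1 KO were near the threshold. Both were lost when any 1 of 5 of the 6 arrays compared was left out, namely DKO replicates 1 and 2 and all 3 of IL4i1 KO. The limma adjusted p was then 0.0592 to 0.176 for Asns, with differences of 1.59 to 2.06, and 0.0533 to 0.19 for Mthfd2, with differences of 1.44 to 1.98. Both were also lost with array weights (limma adjusted p = 0.0664 for Asns and 0.0901 for Mthfd2) and with only the 6 compared arrays in the fit (0.208 and 0.293), and Mthfd2 with the replicate number as a block (0.0577). Without DKO replicate 2, the array with the acinar markers, they were 1.59 (adjusted p = 0.0746) and 1.44 (adjusted p = 0.0907). Without DKO replicate 3 both passed (2.32, adjusted p = 0.00542, and 2.15, adjusted p = 0.01), and so did Chac1 (3.50), Psat1 (2.70), Phgdh (1.78) and Shmt2 (1.74), 6 of 9 in all. DKO replicate 3 was the lowest DKO array for each of these 6 genes, so leaving it out raises their differences by construction. For Asns and Mthfd2, DKO replicates 1 and 2 lay above the DKO mean, so leaving out either lowers the difference in the same way. Leaving out single arrays of this comparison gave 46 to 174 of all 22206 probes past the threshold.

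In DKO against wt, 0 of the 9 passed limma's adjusted test, against 0.0225% of probes, and 4 had an unadjusted p under 0.05 as higher, against 3.63%. These were Shmt2, Phgdh, Mthfd2 and Trib3. All 9 differences were positive, with a median of 0.89 against 0.00 for all probes, and the groups overlapped for each gene, where 5.68% of probes did not overlap with DKO higher. Single DKO arrays moved these values: the median was 0.60 without replicate 1, 0.57 without replicate 2 and 1.31 without replicate 3. The count at an unadjusted p under 0.05 was then 1, 2 and 7, and 8, 8 and 9 differences were positive.

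In DKO against LAO1 KO, 0 of the 9 passed limma's adjusted test, against 0.14% of probes. At an unadjusted p under 0.05, 5 were higher, against 3.51%, led by Shmt2 (1.26, SE 0.36, adjusted p = 0.386) and Phgdh (1.27, SE 0.37, adjusted p = 0.42). Shmt2 alone did not overlap, 1 of 9 against 6.25%. The 5 became 2 without DKO replicate 1, 2 without replicate 2 and 7 without replicate 3. Without DKO replicate 3, Psat1 (2.23) and Phgdh (1.79) passed, both at an adjusted p of 0.0405. In that fit 14 of all 22206 probes passed.

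In IL4i1 KO against wt, 0 of the 9 passed limma's adjusted test, against 0.0135% of probes. Asns and Mthfd2, 2 of 9, were lower at an unadjusted p under 0.05, against 4.34%. The arrays of Asns, Mthfd2, Psat1 and Chac1 did not overlap, 4 of 9 against 5.16%. The median difference was -0.36, against 0.03 for all probes, while Phgdh (-0.17), Shmt2 (-0.15) and Trib3 (-0.01) lay near 0.

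In LAO1 KO against wt, 0 of the 9 passed limma's adjusted test, against 0.0045% of probes, and 0 had an unadjusted p under 0.05, against 3.02%. Psat1 alone did not overlap, 1 of 9 lower against 3.86%. The differences ran from -0.54 for Chac1 to 0.11 for Ddit3, with a median of -0.08. The comparisons share the DKO arrays or the wt arrays, so their values are not independent of each other.

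**Figure D2:**
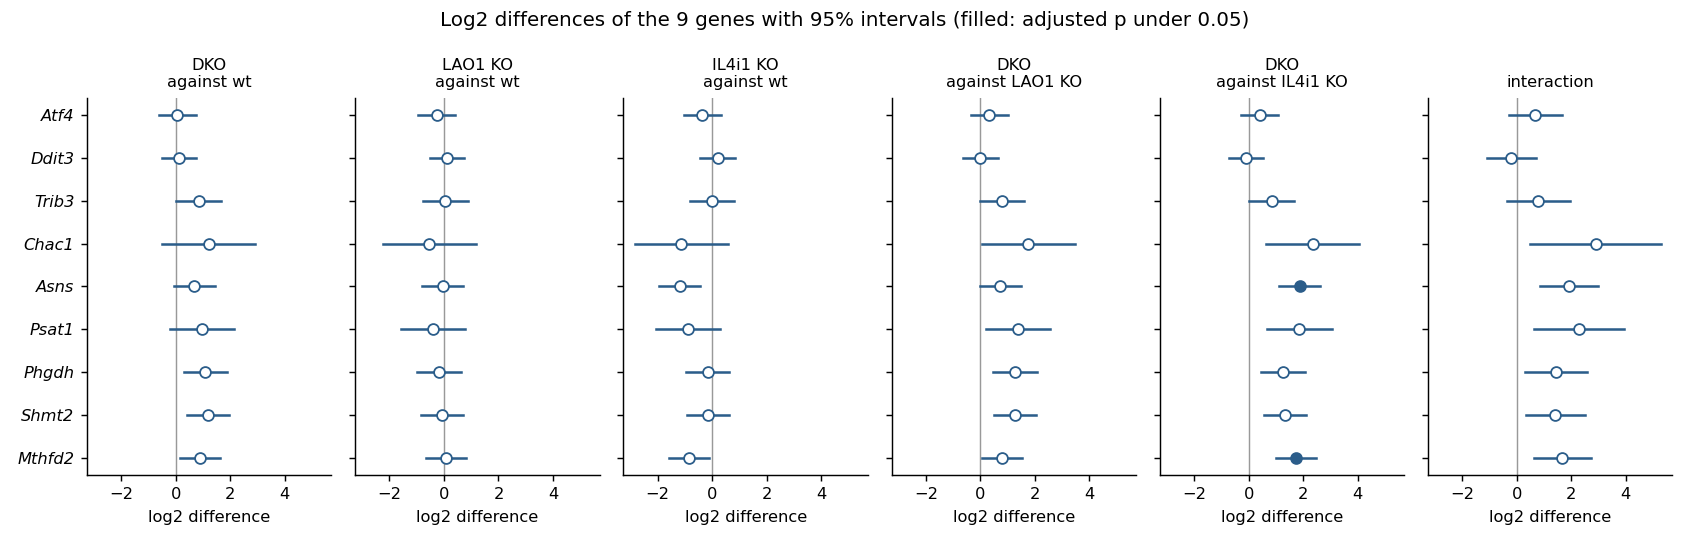
Log2 difference of each gene in each comparison (horizontal axes, the genotype named first minus the other), with 95% intervals from limma and filled points at an adjusted p under 0.05. The filled points are Asns (1.12 to 2.62) and Mthfd2 (1.02 to 2.48) in DKO against IL4i1 KO.

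The interaction asks whether the difference of DKO from wt departs from the sum of both single-knockout differences. It is computed as DKO minus both single knockouts plus wt, so single knockouts below wt also make it positive. For Asns the differences from wt were 0.69 in DKO, -0.05 in LAO1 KO and -1.18 in IL4i1 KO. For Chac1 they were 1.21, -0.54 and -1.14, and for Shmt2 1.18, -0.08 and -0.15. Of the 9, 0 passed limma's adjusted test, against 0.23% of probes, and 6 were positive at an unadjusted p under 0.05, against 3.87%. The largest was that of Chac1 (2.89, SE 1.12, adjusted p = 0.593), followed by Psat1 (2.28, SE 0.77, adjusted p = 0.497). Asns had the smallest p (1.92, SE 0.49, limma adjusted p = 0.244). Without DKO replicate 3, Asns (2.37, adjusted p = 0.0285) and Psat1 (3.11, adjusted p = 0.0159) passed. Leaving out single arrays gave 37 to 74 of all 22206 probes past the threshold in the interaction. In limma's test for any difference among the genotypes 0 of the 9 passed, against 0.207% of probes, the smallest adjusted p being 0.194 for Asns and 0.226 for Mthfd2. At an unadjusted p under 0.05 there were 5 of 9, against 7.48%.

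Array by array, 7 of the 9 genes in DKO replicate 1 and 8 in DKO replicate 2 lay above the highest wt array, against 27% and 22.8% of all probes. In DKO replicate 3 it was 0 of 9, against 26.9%. The median of the 9 relative to the wt mean was 1.31, 1.23 and -0.08 on these arrays. The acinar mean was 4.32, 15.4 and 4.64 in DKO replicates 1, 2 and 3, and the mean over the 9 genes 9.19, 9.26 and 7.80. The replication list was at 9.85, 8.32 and 8.83 in DKO replicates 1, 2 and 3, against 7.84 to 8.39 in wt. The 5 measured neutrophil markers averaged 5.61, 4.26 and 4.24 on them, against 3.82 to 4.44 in wt. The part of acinar RNA, of replication or of neutrophils in the high values was not tested.

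Interferon-induced genes did not follow this split. Their mean was 9.23 to 10.3 in DKO, 6.49 to 7.05 in LAO1 KO, 6.39 to 6.53 in IL4i1 KO and 7.16 to 8.72 in wt. DKO replicate 3 was at 10.2 on that list while its mean over the 9 genes was 7.80, inside the wt range of 7.70 to 8.26. IL4i1 KO was lowest on both, at 7.35 to 7.53 for the 9 genes. The mean of the 7 measured macrophage and monocyte markers was 5.92 to 6.76 there, against 6.69 to 7.73 in wt, and their part in the difference was not tested.

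**Figure D3:**
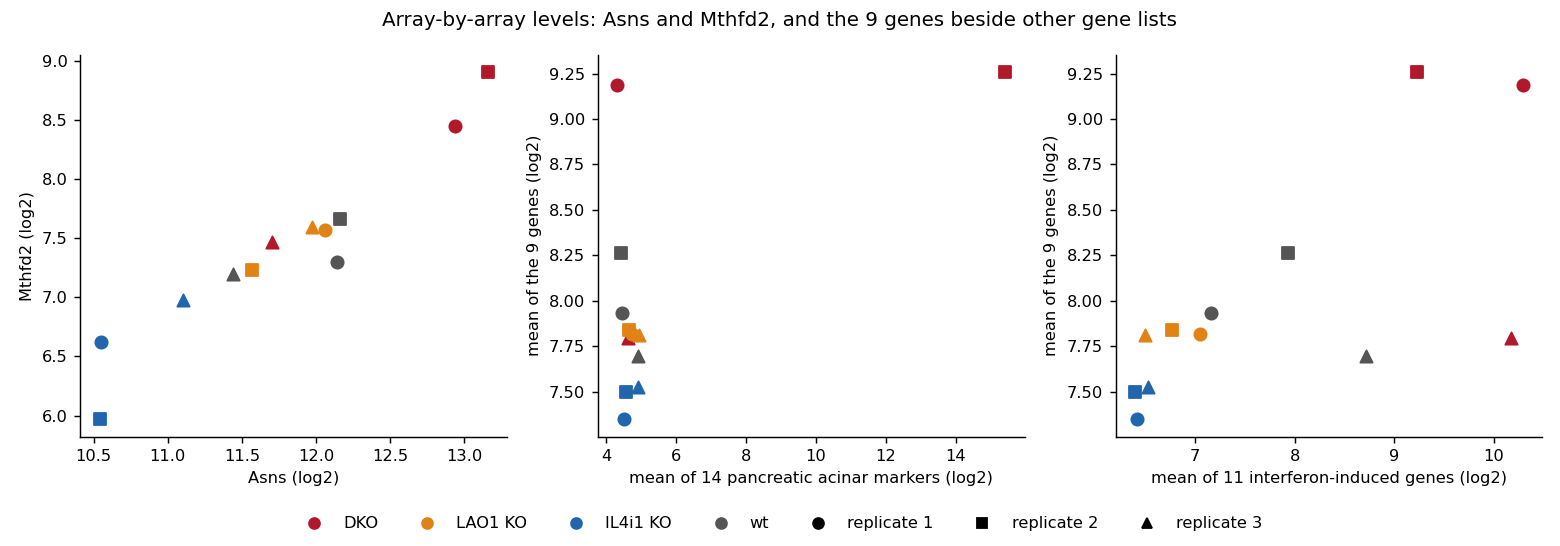
Each point is an array, with colour for genotype and shape for replicate number: Mthfd2 against Asns (left), and the mean log2 level of the 9 genes against the mean of the pancreatic acinar markers (middle) and of the interferon-induced genes (right). DKO replicate 3 lies at 7.80 for the 9 genes with an interferon mean of 10.2, and DKO replicate 2 alone has a high acinar mean.

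Across the 12 arrays, Asns and Mthfd2 had the highest correlation of all pairs among the 9. Pearson's r was 0.96 and Spearman's rho 0.95 (permutation p = 1e-05 for each, the smallest that 100000 resamples can give, 0.00036 after adjustment over 36 pairs). It was 0.95 without the 2 arrays farthest from the Asns median, 0.88 for deviations from genotype means and 0.92 without DKO. The permutations shuffled values across genotypes, so the p-values take in differences between genotypes. Of the 36 pairs, 19 passed by r and 7 by rho. For all 10 pairs among Asns, Psat1, Phgdh, Shmt2 and Mthfd2, r lay between 0.72 and 0.96. By rho, 4 of these 10 pairs passed, and without DKO their r lay between 0.1 and 0.92.

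Several of these rested on DKO replicates 1 and 2, which stand apart from the other arrays. Without them r was 0.38 for Psat1 and Phgdh, against 0.93 with all arrays, and 0.55 for Phgdh and Shmt2, against 0.94. It was 0.15 for Phgdh and Mthfd2 (against 0.72), 0.2 for Psat1 and Shmt2 (against 0.89) and 0.28 for Shmt2 and Mthfd2 (against 0.72). Psat1 and Mthfd2 kept 0.67, against 0.8. For Trib3 with Asns, a pair that did not pass by r, it was -0.02, against 0.61. Asns with Psat1 kept 0.78 without DKO. Of the 8 pairs with Atf4, r lay between -0.12 and 0.48 and 0 passed, and of the 8 with Ddit3 between -0.29 and 0.05, again with 0 past the threshold.

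Among 19496 other named genes, those with the highest r to Asns over the 12 arrays were Emp3 (0.94), Tiam1 (0.94) and Nfkbib (0.92), a description that carries no test. Emp3 (0.93), Slc3a2 (0.92) and Tiam1 (0.91) came first for Mthfd2. For Psat1 they were Eaf1 (0.96), Ifi211 (0.95) and Il4ra (0.94), and for Phgdh Atp8b4 (0.92), Lilr4b (0.91) and Klf10 (0.91). Shmt2 was most like Eif3c (0.93), E2f8 (0.92) and Rrm1 (0.92), and Chac1 like Eif4ebp1 (0.91), Slc6a9 (0.90) and Tnfsf15 (0.90). Trib3 stood nearest to Mrgprb13 (0.91), Cpvl (0.88) and Siah1b (0.87). The values for Atf4 (Trmt44, Sos2 and Lama1, all 0.84) and Ddit3 (Kif4-ps 0.86, Afap1l1 0.85 and Ovol3 0.84) were lower.

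Among the amino acid transporters that ATF4 regulates, Slc7a5, Slc3a2, Slc7a11, Slc7a1 and Slc6a9 were above every wt array on DKO replicates 1 and 2 and not on replicate 3. Slc7a5, the carrier of large neutral amino acids, was at 12.09, 13 and 9.11 in DKO and at 9.9, 9.59 and 8.76 in wt. The difference of 1.98 did not pass (SE 0.71, limma adjusted p = 0.575). Slc3a2, the heavy chain it pairs with, was at 13.62, 14.89 and 13.29 in DKO, against 12.76, 12.08 and 12.7 in IL4i1 KO (1.42, limma adjusted p = 0.143). Slc7a11, which takes up cystine, stood 2.10 above IL4i1 KO (limma adjusted p = 0.239). Of 10 measured transporters, 6 were higher and 1 lower in DKO than in IL4i1 KO at an unadjusted p under 0.05, against 9.83% of all probes in either direction, with 0 past limma's adjusted test and a median of 1.05. Without DKO replicates 1 or 2 there were 3 higher. In DKO against wt, 3 were higher and 2 lower at that level, against 7.44% in either direction, and the median was 0.32. Without DKO replicate 2, the array with the acinar markers, 0 were left at that level and the median was -0.07. It was 0.75 without replicate 3, where 1 transporter, as higher, and 3 of all 22206 probes passed the adjusted test. At an unadjusted p under 0.05 there were then 5 higher and 2 lower. Without replicate 1 the median was 0.26, with 1 higher and 1 lower. In IL4i1 KO against wt, 2 were lower at that level, against 7.58% of all probes in either direction, Slc1a4 (-1.68, limma adjusted p = 0.52) and Slc38a2 (-1.08, adjusted p = 0.634), and the median was -0.54. Slc1a5, a glutamine carrier, was at 10.88, 10.4 and 10.81 in DKO, below every wt array (11.59, 11.12 and 11.33). So was Slc43a1, a carrier of large neutral amino acids, at 6.15, 5.89 and 6.34 in DKO and 6.97, 6.86 and 6.56 in wt. Both differences, -0.65 and -0.67, had a limma adjusted p of 0.632.

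Aminoacyl-tRNA synthetases load tRNAs with amino acids, and many are ATF4 targets. All 12 measured genes of that list (which includes the tRNA exporter Xpot) had a positive difference in DKO against wt, with a median of 0.61, and 6 had an unadjusted p under 0.05 in limma, against 7.44% of all probes in either direction, where 0 passed. The 6 became 3 without DKO replicate 1, 4 without replicate 2 and 7 without replicate 3. The smallest p-values were those of Wars (1.77, adjusted p = 0.387), Yars (0.87, adjusted p = 0.387) and Mars1 (0.91, adjusted p = 0.406). Against IL4i1 KO, 8 of 12 were higher at an unadjusted p under 0.05, against 5.17% of all probes, and only Wars passed (2.70, SE 0.46, limma adjusted p = 0.0178), 1 of 12 against 0.387%. Wars, the tryptophan enzyme and also an interferon-induced gene, was at 15.7, 14.3 and 14.8 in DKO and at 12.92, 11.14 and 12.63 in IL4i1 KO. All 3 DKO arrays lay above all other arrays. Without IL4i1 KO replicate 2 or DKO replicates 1 or 3 the call was lost (limma adjusted p = 0.0531, 0.102 and 0.0564).

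The other folate and serine genes were split in sign. Of 24 measured, 3 were higher and 2 lower in DKO than in wt at an unadjusted p under 0.05 in limma, against 7.44% of all probes in either direction, with 0 past the adjusted test and a median of 0.00. Without DKO replicates 1 or 3 it was 2 higher and 0 lower. Mthfd1l, which releases formate from mitochondria downstream of Mthfd2, was at 8.99, 8.73 and 8.93 in DKO, at 7.85, 7.75 and 7.44 in LAO1 KO, at 7.68, 7.7 and 8.06 in IL4i1 KO, and at 8.15, 7.63 and 7.25 in wt. All 3 DKO arrays, replicate 3 included, lay above the other 9 arrays. The difference was 1.21 from wt (SE 0.24, limma adjusted p = 0.217) and 1.07 from IL4i1 KO (adjusted p = 0.0812). Psph, the last enzyme of serine synthesis, was at 10.55, 10.63 and 10.69 in IL4i1 KO, above every wt array (9.65, 9.88 and 10.15), the opposite side from Psat1, with a difference of 0.73 (limma adjusted p = 0.601). LAO1 KO also lay above every wt array for it, at 10.32, 10.19 and 10.4, a difference of 0.41 that did not pass. Aldh1l2, which oxidises formyl-folate in mitochondria, stood 1.39 below wt in IL4i1 KO, a difference of -1.39 (limma adjusted p = 0.52). The wt arrays were at 7.06, 5.78 and 5.3, those of DKO at 5.12, 5.59 and 4.6, and those of LAO1 KO at 5.77, 4.86 and 5.36.

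**Figure D4:**
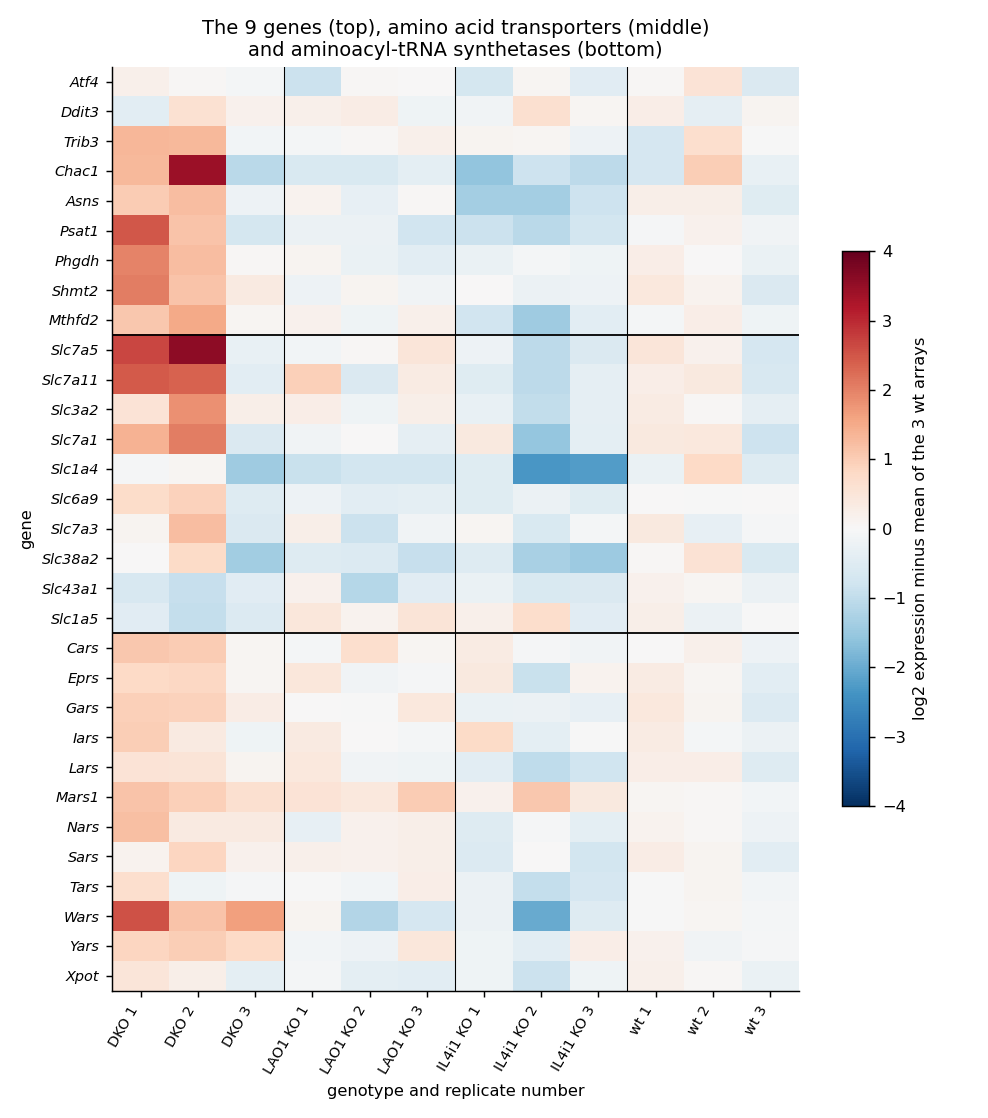
Log2 level minus the mean of the 3 wt arrays (colour scale) for the 9 genes, the amino acid transporters and the aminoacyl-tRNA synthetase list, with arrays of DKO, LAO1 KO, IL4i1 KO and wt from left to right. Among the 9 genes 7 in DKO replicate 1 and 8 in DKO replicate 2 are above every wt array, and 0 in DKO replicate 3.

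Upstream of ATF4, 0 of 12 measured eIF2alpha kinases, phosphatase subunits and eIF2B subunits passed limma's adjusted test in DKO against wt. At an unadjusted p under 0.05 there were 2, against 7.44% of all probes (1 without DKO replicates 1 or 3, and 3 without replicate 2). They were Eif2ak2, the kinase PKR that interferon also induces (0.64, limma adjusted p = 0.617), and the exchange factor subunit Eif2b2 (0.48, adjusted p = 0.599). Ppp1r15b, a subunit of the phosphatase that reverses the phosphorylation, was at 10.34, 9.95 and 9.6 in IL4i1 KO, below every wt array (10.75, 11.44 and 10.4), with a difference of -0.90 (limma adjusted p = 0.533). LAO1 KO also lay below every wt array for it, at 10.33, 10.15 and 10.31, a difference of -0.6 that did not pass. DKO stood 1.03 above IL4i1 KO for it (limma adjusted p = 0.173). In DKO against IL4i1 KO, 0 of the 12 passed the adjusted test. There 4 were higher at an unadjusted p under 0.05, against 5.17% of all probes. The arrays of 4 did not overlap with DKO higher, against 6.05%.

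Of 18 other ATF4 targets measured, Nupr1, a stress-induced cofactor, was the only 1 to pass in DKO against any other genotype, and it fell. It passed against wt, LAO1 KO and IL4i1 KO, where 5, 31 and 106 of all 22206 probes passed in either direction. It was at 9.67, 9.91 and 9.87 in DKO, at 12.23, 14.23 and 13.68 in LAO1 KO, at 12.85, 12.94 and 11.57 in IL4i1 KO, and at 12.72, 14.1 and 13.45 in wt. The difference was -3.61 from wt (SE 0.49, limma adjusted p = 0.0352) and -2.64 from IL4i1 KO (SE 0.49, adjusted p = 0.0348), the opposite sign to Asns. Without DKO replicates 1 or 3 it passed against neither wt (limma adjusted p = 0.155 and 0.107) nor IL4i1 KO (0.156 and 0.1), with differences of -3.63 to -2.56. It also failed against wt without wt replicates 2 or 3 (limma adjusted p = 0.137 and 0.0661). Against IL4i1 KO it failed without IL4i1 KO replicates 1 or 2 (0.101 and 0.134) or DKO replicate 2 (0.0546). Against LAO1 KO it failed without LAO1 KO replicates 2 or 3 (0.0536 and 0.0741) or DKO replicates 1 or 3 (0.0508 and 0.0523). The differences from LAO1 KO were then -3.59 to -3.14. In DKO against IL4i1 KO, 16 of the 18 differences were positive, against 47% of all probes, with a median of 0.23. At an unadjusted p under 0.05, 4 were higher, against 5.17% of all probes, and 1 was lower. The 4 became 2, 1 and 5 without DKO replicates 1, 2 and 3. In IL4i1 KO against wt, 14 of 18 were negative (median -0.22), 2 of them at that level, against 4.34%. In DKO against wt, 10 of 18 were positive (median 0.06), with 0 higher and 1 lower at that level.

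Genes of the other arms of the unfolded protein response, which XBP1 and ATF6 drive, had a median of 0.04 in DKO against wt. It was 0.33 in DKO against IL4i1 KO, with 14 of 16 positive, against 47% of all probes. At an unadjusted p under 0.05, 0 were higher and 1 lower there. In IL4i1 KO against wt the median was -0.23, with 12 of 16 negative. In DKO against wt, 0 of 16 passed limma's adjusted test. At an unadjusted p under 0.05, 0 were higher and 1 was lower, against 7.44% of all probes in either direction. The lower gene was the chaperone Dnajb9 (-1.55, SE 0.33, limma adjusted p = 0.259), at 9.56, 10.67 and 10.99 in DKO and 11.99, 12.19 and 11.69 in wt. Purine synthesis, which uses one-carbon units, had a median of 0.43 over 7 genes, with Gart (0.73, adjusted p = 0.577) and Atic (0.84, adjusted p = 0.645) at an unadjusted p under 0.05 as higher, 2 of 7 against 3.63%. Without DKO replicate 1 that was 0 of 7, with a median of 0.17. Mitochondrial chaperones and proteases had a median of 0.28 over 7 genes, with 1 of 7, Hspa9 (0.75, adjusted p = 0.616), at that level. It was 0, 3 and 2 of 7 without DKO replicates 1, 2 and 3, with medians of 0.13, 0.47 and 0.37. Replication and mitosis genes had a median of 1.02, with 8 of 12 higher at an unadjusted p under 0.05, against 3.63% of all probes, and 0 past the adjusted test, led by Mcm6 (1.74, adjusted p = 0.21). Without DKO replicate 1, the highest array on this list, 5 of 12 were higher at that level and the median was 0.57. Without replicate 2 there were 9, of which 2 passed the adjusted test. In that fit 38 of all 22206 probes passed.

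**Figure D5:**
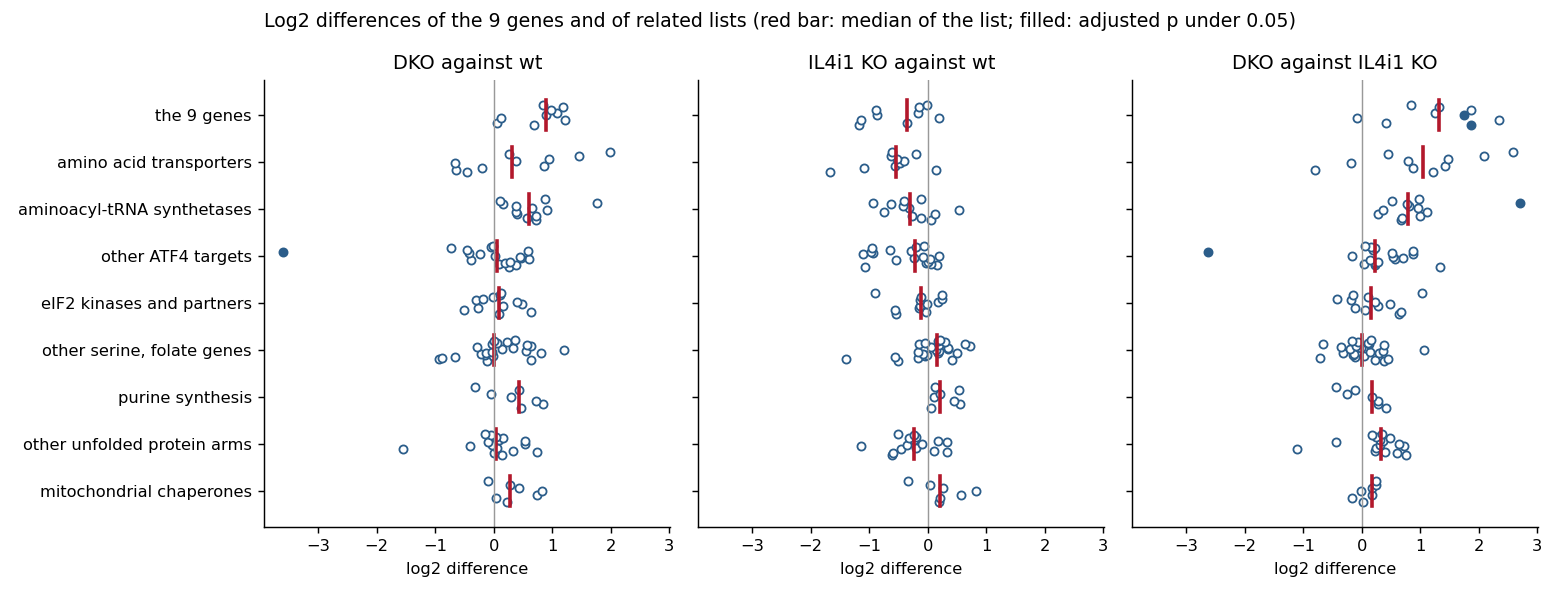
Log2 difference (horizontal axes) of every measured gene (points, filled at an adjusted p under 0.05) of the 9 genes and of each pathway list in DKO against wt, IL4i1 KO against wt and DKO against IL4i1 KO, with the list median as a red bar. The median of the 9 is 0.89, -0.36 and 1.33 in these comparisons.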

How the data were processed

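The authors deposited log2 expression values, 22206 probes by 12 arrays to 2 decimals. Transcriptome Analysis Console is the tool listed in the submitters' processing notes, and its version is not given. Summarisation, normalization and genome build are not given in the sources used here. Per the labels' protocols, 6 µg of RNA extracted with ISOGEN II was turned into biotin-labelled cRNA. Probes were named from the platform annotation (19572 with 1 symbol, 2634 with none given).

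The values were used as deposited, without a filter. Limma 3.58.1 in R 4.3.3 (lmFit, eBayes) fitted a mean per genotype over all 12 arrays, leaving 8 residual degrees of freedom, for 6 contrasts and an F test. The p-values are two-sided and Benjamini-Hochberg adjusted over all probes, with a threshold of 0.05. Means have SDs over 3 arrays and differences have limma's SE. The fit was tested on simulated data. Correlations used Python 3.11.15 and NumPy 2.4.6.

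The members and lists were chosen with earlier results of these data known. From each list the text names up to 3 genes with the smallest p in a comparison, and for likeness the 3 highest r. Alternatives were quantile normalization, median centring, a filter on dim probes, trend and robust options, a replicate block, array weights, only the compared arrays, each array left out, and the second Ddit3 probe. The number of arrays limits the precision.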

Additional observations from a re-analysis of the deposited data

How the results depend on the processing

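Array weights gave 18 probes in DKO against wt (main 5), 11 in IL4i1 KO against wt (main 3) and 60 in DKO against LAO1 KO (main 31). Trend and robust options gave 11 in DKO against wt and 8 in IL4i1 KO against wt. With only the compared arrays the counts were 2 in DKO against wt and 33 in DKO against IL4i1 KO (main 106). Leaving out each array gave 1 to 38 probes in DKO against wt, 1 to 4 in LAO1 KO against wt, 2 to 5 in IL4i1 KO against wt, 11 to 68 in DKO against LAO1 KO, 46 to 174 in DKO against IL4i1 KO, 37 to 74 in the interaction and 21 to 78 for any genotype difference. Of the 9 genes it gave 0 to 6 in DKO against IL4i1 KO, and 0 to 2 in DKO against LAO1 KO, in the interaction and for any genotype difference. Whether the replicate numbers pair the arrays could not be settled, since same-number and other pairs overlapped. Deviations from genotype means correlated at -0.14 to 0.22 over the 18 same-number pairs (median 0.061, 7 above 0.1). Over the 36 other pairs it was -0.32 to 0.29 (median -0.035, 9 above 0.1). Of 12 arrays, 5 correlated best with their own number. With the replicate block, DKO against IL4i1 KO had 166 probes and 1 of the 9 genes, since Mthfd2 kept 1.75 at an adjusted p of 0.0577. Array weights left 0 of the 9 there (Asns 1.66, adjusted p = 0.0664, and Mthfd2 1.50, adjusted p = 0.0901), and so did the compared arrays alone (adjusted p = 0.208 for Asns and 0.293 for Mthfd2). Both passed under quantile normalization, median centring, the dim filter and trend and robust options. Signs turned in differences that did not pass the test: Atf4 at -0.18 in DKO against wt and, in LAO1 KO against wt, Trib3 at -0.14 and Mthfd2 at -0.011 with array weights, and Ddit3 at -0.015 in DKO against LAO1 KO after median centring. The other Ddit3 probe gave -0.14 in LAO1 KO against wt, -0.31 in IL4i1 KO against wt, 0.44 in DKO against IL4i1 KO and 0.59 in the interaction. Leaving out arrays turned Atf4 and Ddit3 in DKO against wt (-0.23 to 0.32 and -0.13 to 0.39). In LAO1 KO against wt it turned Atf4 (-0.55 to 0.028), Ddit3 (-0.063 to 0.26), Trib3 (-0.28 to 0.39), Asns (-0.28 to 0.10), Shmt2 (-0.36 to 0.13) and Mthfd2 (-0.017 to 0.21). In IL4i1 KO against wt it turned Ddit3 (-0.023 to 0.37), Trib3 (-0.35 to 0.33) and Shmt2 (-0.43 to 0.06). Ddit3 ran from -0.24 to 0.27 in DKO against LAO1 KO, -0.33 to 0.19 in DKO against IL4i1 KO and -0.44 to 0.073 in the interaction. The causes were not tested.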
